A study of Mus musculus with 36 samples.

Results

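Proliferation and cell-cycle genes were described in visceral white adipose tissue (visWAT, the epididymal fat depot) and liver of mice lacking Mlkl in mature adipocytes. The 42 genes were chosen by name from the 56748 genes of the expression table, and all 42 were found there. They comprise 5 G1 cyclins and CDK inhibitors, 4 genes of S-phase entry, 11 of DNA replication, 7 of mitotic entry and 15 of mitosis. The animals were male C57BL/6J mice carrying loxP-flanked Mlkl alleles. MlklAdi-KO mice also carried Adipo-Cre, which is active in mature adipocytes, whereas their wild-type (WT) littermates lacked Cre. From 16 weeks of age they received a high-fat diet (HFD) or a normal chow diet (NCD) for 16 weeks. There were 4 WT NCD mice (165, 180, 182 and 183), 4 MlklAdi-KO NCD mice (166, 179, 197 and 199), 5 WT HFD mice (154, 155, 161, 162 and 164) and 5 MlklAdi-KO HFD mice (151, 152, 153, 156 and 157). Each of the 18 mice gave 1 visWAT and 1 liver library, and whole tissue was sequenced, so a value is an average over adipocytes or hepatocytes and every other cell present.

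Cells divide by passing through G1, DNA synthesis (S phase), G2 and mitosis. D-type and E-type cyclins with their kinases release E2F factors, which switch on the genes of DNA synthesis. FOXM1 and partner factors then raise the genes that build the spindle and separate the chromosomes, and CDK inhibitors such as p21 (Cdkn1a) and p18 (Cdkn2c) oppose the G1 step. Mature adipocytes and most adult hepatocytes are not dividing, whereas macrophages and adipocyte progenitors in fat of obese mice can divide. Differentiated adipocytes are known to keep high Cdkn2c.

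The control sequences of the members were searched for letters bound by these factors, in the 250 bases before the start of 1 transcript of each gene, the canonical one (GRCm39, GENCODE vM39, both strands). In 5 members (Ccnd2, Ccnd3, Cdkn1a, Cdkn2c and Cdca8) that start lies inside the gene as the deposited table bounds it. Of the 42 members, 6 (14.3%) held an E2F motif (tttggcgc, tttcccgc, tttcgcgc or tttgccgc), against 497 of 21757 protein-coding genes (2.28%). By role, 3 of 11 DNA replication members (27.3%) and 0 of 15 mitosis members held one. The cell-cycle homology region (CHR, tttgaa) was found in 7 members (16.7%) against 15.6% of all promoters, the CCAAT box (ccaat) in 20 (47.6%) against 36.5%, and the E-box (cacgtg) in 4 (9.52%; Tyms, Aurka, Aurkb and Ube2c) against 6.26%. Wee1 held 1 CCAAT box and none of the other motifs in this window. A match is a run of letters and not a shown binding site. Motifs were searched independently, whether or not their matches overlapped. Of the promoters searched, 3 that differ in their motifs are printed, chosen after the search. They belong to Mcm6, a subunit of the replicative helicase, at chr1:128287453-128287702 on the minus strand, Cdk1, the kinase that drives entry into mitosis, at chr10:69188769-69189018 on the minus strand, and Top2a, the topoisomerase that untangles replicated chromosomes, at chr11:98915042-98915291 on the minus strand. Each is written 5′ to 3′ and ends at the base before the transcript's start. Capitals mark E2F matches in Mcm6 (100 to 93, 96 to 89 and 37 to 30 bases before the start), where the first 2 overlap, and a CCAAT box at 47 to 43. In Cdk1 they mark CCAAT boxes at 182 to 178, 54 to 50 and 22 to 18, an E2F match at 105 to 98 and a CHR at 45 to 40. In Top2a they mark a CHR at 153 to 148 and 6 CCAAT boxes between 201 and 28 bases before the start.
Mcm6: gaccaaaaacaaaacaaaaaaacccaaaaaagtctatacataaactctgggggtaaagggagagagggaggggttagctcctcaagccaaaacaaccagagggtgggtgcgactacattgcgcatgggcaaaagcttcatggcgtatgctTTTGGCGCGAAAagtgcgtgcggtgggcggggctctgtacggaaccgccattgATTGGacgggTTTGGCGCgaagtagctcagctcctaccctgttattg
Cdk1: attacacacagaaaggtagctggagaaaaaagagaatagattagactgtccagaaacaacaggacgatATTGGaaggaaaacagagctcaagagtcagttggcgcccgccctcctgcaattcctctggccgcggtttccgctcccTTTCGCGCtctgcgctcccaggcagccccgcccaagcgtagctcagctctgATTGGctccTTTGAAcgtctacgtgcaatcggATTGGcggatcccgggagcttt
Top2a: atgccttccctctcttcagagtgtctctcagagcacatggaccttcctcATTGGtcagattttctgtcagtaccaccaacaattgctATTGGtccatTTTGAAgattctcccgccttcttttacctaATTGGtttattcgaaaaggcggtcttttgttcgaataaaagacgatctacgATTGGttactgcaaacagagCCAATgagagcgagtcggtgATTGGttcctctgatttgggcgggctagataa

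Libraries held 20875463 to 25530574 reads on genes in liver and 21580696 to 30322171 in visWAT. Values are FPKM (fragments scaled by gene length and library size), so levels can be compared between genes. Mlkl in visWAT was 3.91 to 5.11 FPKM in 3 WT NCD libraries and 4.58 to 6.28 in WT HFD, against 1.96 to 2.72 in the 9 MlklAdi-KO libraries. The library labelled visWAT WT NCD 182 had 2.29 FPKM and thus went against its label. Seminal vesicle genes took 17.5% of the reads of visWAT WT NCD 183 and at most 0.0247% of any other visWAT library. In visWAT MlklAdi-KO HFD 156 the 6 hepatocyte markers summed to 711 FPKM, against 0.612 to 95.8 in the other visWAT libraries. The liver library WT NCD 182 stood apart in the members themselves and is described with the liver results. In the tissue check, the 6 adipocyte markers summed to 3395 to 6513 FPKM in visWAT and 42.6 to 152 in liver. The 6 hepatocyte markers summed to 38477 to 64111 in liver, and Plin1 was listed at 0 in all 4 WT NCD livers and Lep in all 4 MlklAdi-KO NCD livers.

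**Figure D1:**
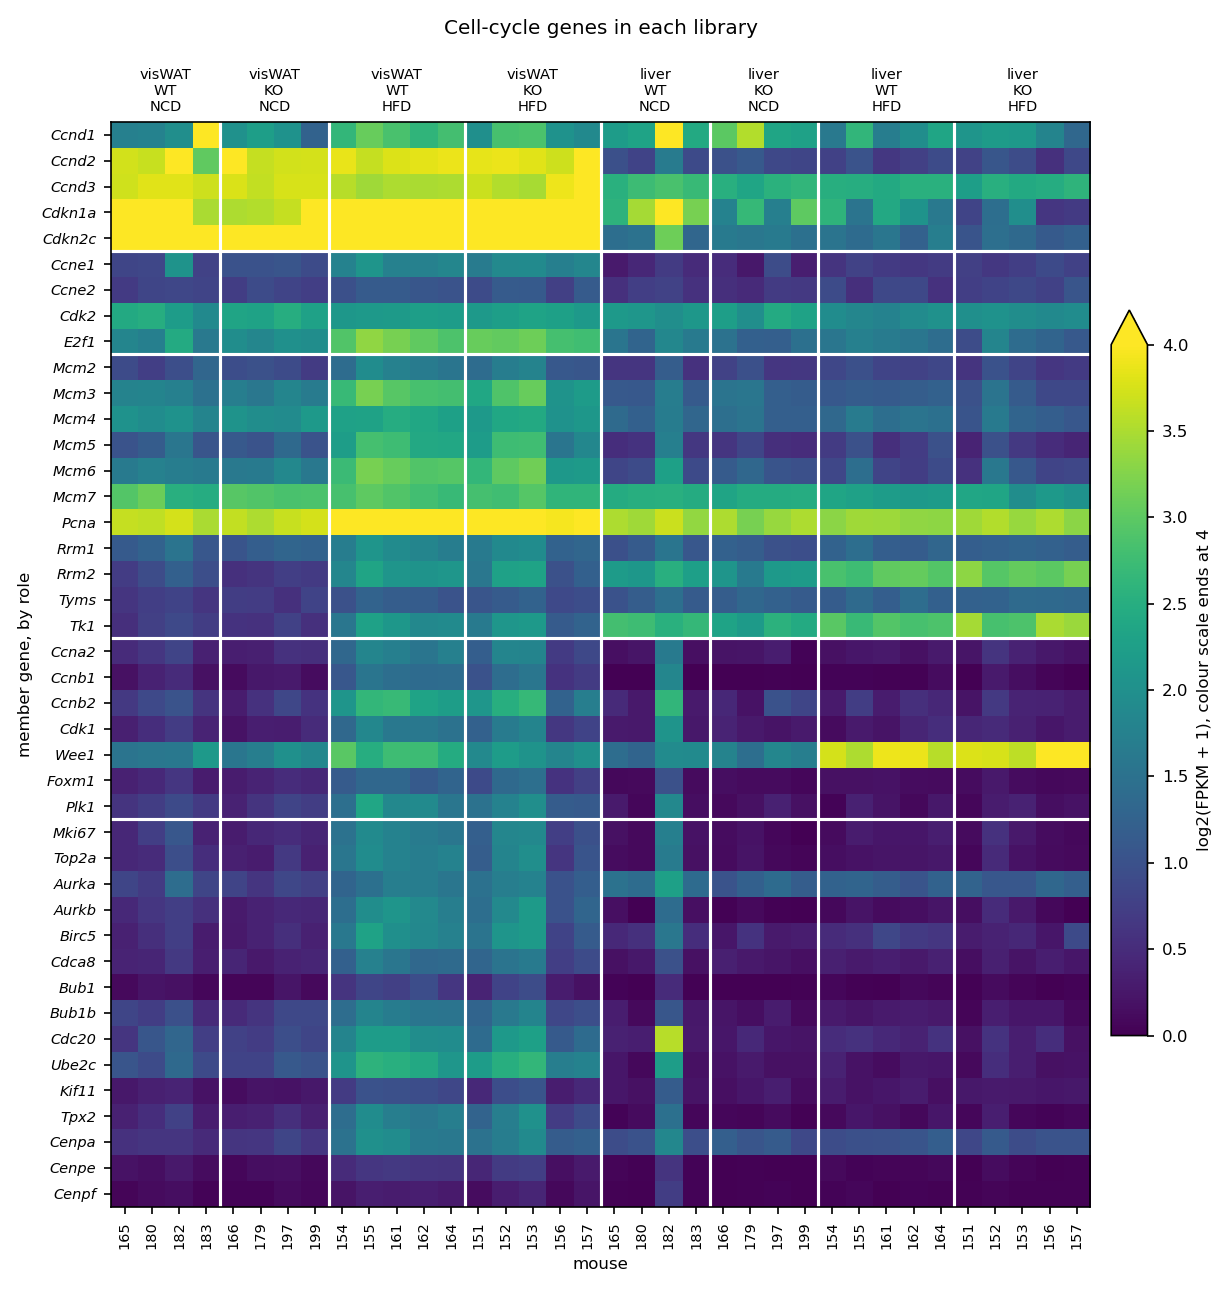
Level of each of the 42 members (rows, grouped by role) in each of the 36 libraries (columns, grouped by tissue, genotype and diet), as log2(FPKM + 1) on a colour scale that ends at 4. The DNA replication and mitosis rows are brighter in visWAT on HFD than on NCD, and 1 liver column (WT NCD 182) stands out from the other 17.

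Whether HFD changed the members was first asked in visWAT. In WT mice, most genes from S-phase entry through mitosis rose on HFD, by up to 6.76-fold in mean FPKM (Birc5), and most of them also rose in MlklAdi-KO mice. Of 39 members tested in WT, 33 rose and 2 fell (limma on log2(FPKM + 1), adjusted p under 0.05), where 21.9% of 14161 genes rose and 15.8% fell. On the TPM scale 34 rose and 0 fell, where 26.9% of all genes rose and 1.6% fell. TPM divides by the library's FPKM sum, which was 564718 in WT NCD 183, the library with seminal vesicle reads. In the other visWAT libraries it was 227793 to 309820, so TPM lowers the NCD side through this 1 library. The median difference of the tested members was 1.06 on the log2(FPKM + 1) scale, against -0.01 over all genes. In MlklAdi-KO mice, 28 of 38 members rose and 1 fell, where 23.3% of all genes rose and 20.3% fell, and the median was 0.83. A gene entered the test with a mean of at least 0.5 FPKM over both groups, which a gene high on HFD alone can reach. With no filter, all 42 members were tested and 37 were called in WT (35 higher) and 26 in MlklAdi-KO (25 higher), where 17.9% and 19.1% of all genes were. Without the visWAT WT NCD libraries 182 and 183, 38 of 40 members were called in WT (35 higher, 3 lower), where 52.1% of all genes were. Without MlklAdi-KO HFD mouse 156, the library with hepatocyte reads, 31 of 38 members were called in MlklAdi-KO, where 45.5% of all genes were. Fewer cells of a type and less RNA per cell cannot be told apart in whole tissue.

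Among mitosis genes, 12 of 12 tested rose in WT and 11 of 11 in MlklAdi-KO visWAT. Mki67 encodes the Ki-67 protein that coats mitotic chromosomes and is the usual mark of cycling cells. Listed by mouse in the order above, its FPKM was 0.366, 0.668, 1.13 and 0.305 in WT NCD and 1.83, 2.76, 2.43, 2.18 and 1.98 in WT HFD. In MlklAdi-KO mice it was 0.237, 0.366, 0.421 and 0.336 on NCD and 1.32, 2.57, 2.66, 0.664 and 0.975 on HFD. Every HFD value lay above every NCD value of its genotype, and the HFD values of MlklAdi-KO mice 156 and 157 were the lowest of the 10 HFD mice. The log2 difference was 1.02 ± 0.15 (SE here and below) in WT (adjusted p = 0.000639, ratio of means 3.62) and 0.91 ± 0.23 in MlklAdi-KO (adjusted p = 0.0123, ratio 4.82).

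Top2a showed a similar order. In WT it was 0.362, 0.403, 0.95 and 0.435 FPKM on NCD and 1.96, 2.84, 2.4, 2.25 and 2.4 on HFD, and in MlklAdi-KO 0.278, 0.238, 0.587 and 0.295 on NCD and 1.26, 2.48, 2.94, 0.534 and 1.06 on HFD. The WT groups did not overlap, whereas MlklAdi-KO HFD mouse 156 fell within the NCD range. The log2 difference was 1.14 ± 0.12 in WT (adjusted p = 7.41e-05) and 0.9 ± 0.26 in MlklAdi-KO (adjusted p = 0.0207). The latter call was lost in 2 of the 9 fits that left out 1 mouse, with adjusted p up to 0.0528. Birc5 (survivin) and Aurkb belong to the complex that corrects chromosome attachment, and Ube2c is the ubiquitin-conjugating enzyme of the anaphase-promoting complex. Birc5 was 0.289, 0.453, 0.673 and 0.24 FPKM in WT NCD and 2.03, 3.94, 3.0, 2.64 and 2.38 in WT HFD, a ratio of 6.76 (log2 1.41 ± 0.15, adjusted p = 7.08e-05). Its ratio in MlklAdi-KO was 6.76 (log2 1.16 ± 0.27, adjusted p = 0.00798). Ube2c rose from 1.07, 0.89, 1.58 and 0.866 FPKM to 3.21, 4.99, 4.76, 4.34 and 3.31 in WT (log2 1.28 ± 0.14, adjusted p = 9.44e-05), again without overlap. In MlklAdi-KO visWAT, Ube2c differed by 1.24 ± 0.20 and Aurkb by 1.17 ± 0.22 on the log2 scale (adjusted p = 0.00154 and 0.00276). Bub1, a spindle checkpoint kinase, and the kinetochore genes Cenpe and Cenpf stayed under the filter and were not tested. Bub1 was 0.0524 to 0.155 FPKM in WT NCD and 0.522 to 0.926 in WT HFD visWAT. Over the tested mitosis members the log2 differences ran from 0.60 (Kif11, a spindle motor) to 1.41 (Birc5) in WT and from 0.61 to 1.24 in MlklAdi-KO. Cenpa, the histone variant of the centromere, was 0.485, 0.526, 0.535 and 0.39 FPKM in WT NCD and 1.84, 3.03, 2.86, 2.11 and 2.04 in WT HFD. Tpx2 was 0.288, 0.44, 0.71 and 0.251 in WT NCD and 1.71, 2.87, 2.29, 2.01 and 2.26 in WT HFD, so both separated by diet.

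All 7 members of mitotic entry rose in WT visWAT, by 0.81 to 1.60 on the log2 scale, and 6 of 7 rose in MlklAdi-KO. Ccnb2, a B-type cyclin and partner of CDK1, had the highest log2 difference of any called member in both genotypes. Its FPKM was 0.588, 0.84, 1.04 and 0.512 in WT NCD, 3.25, 5.26, 5.49, 3.99 and 3.69 in WT HFD, 0.239, 0.489, 0.806 and 0.496 in MlklAdi-KO NCD and 3.3, 4.7, 5.39, 1.39 and 2.26 in MlklAdi-KO HFD. This gave 1.6 ± 0.15 in WT (adjusted p = 3.03e-05, ratio 5.83) and 1.47 ± 0.27 in MlklAdi-KO (adjusted p = 0.00294, ratio 6.72), with no overlap in either genotype. Ccnb1, the other B-type cyclin of mitotic entry, was 0.133, 0.297, 0.403 and 0.132 FPKM in WT NCD and 1.13, 1.94, 1.73, 1.64 and 1.66 in WT HFD. In MlklAdi-KO it was 0.0796, 0.193, 0.216 and 0.0982 on NCD and 1.0, 1.71, 1.96, 0.498 and 0.613 on HFD. Both genotypes differed without overlap, by 1.08 ± 0.11 (adjusted p = 6.68e-05, ratio 6.71) and 0.86 ± 0.20 (adjusted p = 0.00845, ratio 7.88). Its kinase Cdk1 was 0.279, 0.443, 0.643 and 0.324 FPKM in WT NCD and 1.55, 2.63, 2.03, 2.05 and 1.84 in WT HFD, and 0.142, 0.257, 0.25 and 0.406 and 1.38, 2.18, 2.48, 0.57 and 0.738 in MlklAdi-KO. The differences were 1.08 ± 0.11 (adjusted p = 7.59e-05) and 0.9 ± 0.24 (adjusted p = 0.0134), both without overlap. Foxm1, the factor that drives these genes in G2, was 0.283, 0.374, 0.545 and 0.238 FPKM in WT NCD and 1.21, 1.51, 1.53, 1.19 and 1.44 in WT HFD, and 0.239, 0.317, 0.429 and 0.36 and 0.862, 1.58, 1.77, 0.495 and 0.687 in MlklAdi-KO. It rose by 0.81 ± 0.09 in WT (adjusted p = 9.95e-05) and 0.6 ± 0.18 in MlklAdi-KO (adjusted p = 0.0257), and the second call held in 5 of 9 fits without 1 mouse. Wee1, the kinase that holds CDK1 inactive, was the mitotic entry member that did not pass in MlklAdi-KO. It was 1.91, 1.99, 2.02 and 3.44 FPKM in WT NCD and 6.84, 4.61, 5.75, 5.72 and 4.49 in WT HFD (log2 0.97 ± 0.15, adjusted p = 0.000902). In MlklAdi-KO it was 1.98, 2.26, 3.02 and 2.61 on NCD and 2.67, 3.61, 3.16, 2.53 and 3.01 on HFD (log2 0.21 ± 0.11, adjusted p = 0.138), and the 2 MlklAdi-KO diets overlapped.

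DNA replication genes rose in 10 of 11 cases in WT (not Mcm7) and in 8 of 11 in MlklAdi-KO (not Mcm4, Mcm7 or Rrm1). The MCM genes encode the replicative helicase. Mcm5 was 1.03, 1.24, 1.96 and 1.07 FPKM in WT NCD and 3.69, 6.03, 5.8, 4.32 and 4.3 in WT HFD (log2 1.32 ± 0.15, adjusted p = 0.000136), and in MlklAdi-KO it was 1.18, 1.03, 1.57 and 1.03 and 3.65, 5.78, 5.81, 1.94 and 2.62 (log2 1.1 ± 0.25, adjusted p = 0.0070). Mcm6 was 2.11, 2.38, 2.23 and 2.09 FPKM in WT NCD and 5.62, 8.1, 7.36, 6.56 and 6.7 in WT HFD (log2 1.29 ± 0.09, adjusted p = 5.8e-06, ratio 3.12). Neither gene overlapped between the diets of a genotype. Mcm7 was 6.59, 7.58, 4.76 and 4.55 FPKM in WT NCD and 6.11, 7.06, 6.56, 5.94 and 5.49 in WT HFD, which overlapped (log2 0.09 ± 0.14, adjusted p = 0.618). Pcna, the sliding clamp of the polymerases, had the highest mean FPKM of the replication members in WT visWAT. It was 11.6, 11.2, 12.4 and 10.2 in WT NCD and 18, 34.8, 28, 23.8 and 23.3 in WT HFD (log2 1.08 ± 0.16, adjusted p = 0.000735), and 11.4, 10.4, 11.6 and 12.4 and 23.5, 25.3, 28.3, 14.4 and 15 in MlklAdi-KO. Rrm1, the larger subunit of ribonucleotide reductase, was 1.18, 1.38, 1.9 and 1.12 in WT NCD and 2.24, 3.26, 2.81, 2.52 and 2.23 in WT HFD (log2 0.59 ± 0.12, adjusted p = 0.00342), whereas MlklAdi-KO mice 156 and 157 (2.11, 2.73, 2.86, 1.4 and 1.49 over the group) came close to their NCD group (1.06, 1.29, 1.48 and 1.39). Pcna, Rrm1, Cenpa and Tpx2 were named after their values were seen.

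Of the 4 genes of S-phase entry, Ccne1, Ccne2 and E2f1 rose in WT, and Ccne1 and E2f1 in MlklAdi-KO. E2f1, an activating E2F factor, was 2.53, 2.3, 4.44 and 2.08 FPKM in WT NCD and 6.5, 9.11, 8.02, 7.09 and 6.38 in WT HFD. In MlklAdi-KO it was 2.89, 2.56, 3.02 and 2.88 on NCD and 7.4, 7.23, 7.66, 6.09 and 5.87 on HFD. Both genotypes separated completely by diet, with 1.16 ± 0.17 in WT (adjusted p = 0.000594) and 1.03 ± 0.08 in MlklAdi-KO (adjusted p = 0.000128). Ccne1 (cyclin E1, named after its values were seen) was 0.781, 0.809, 3.16 and 0.736 FPKM in WT NCD and 2.41, 3.25, 2.37, 2.37 and 2.55 in WT HFD, and the library labelled 182 lay inside the HFD range. Its WT difference of 0.7 ± 0.25 had adjusted p = 0.0491 and an exact permutation p of 0.0794, and it was called in 1 of 9 fits without 1 mouse.

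The G1 cyclins and CDK inhibitors did not move as a group. Of 5, Cdkn1a rose and Ccnd3 and Cdkn2c fell in WT, and in MlklAdi-KO Cdkn1a rose and Cdkn2c fell. Cdkn1a was 15.3, 18.4, 16.4 and 10.2 FPKM in WT NCD and 31.9, 45, 34.1, 31.8 and 34.1 in WT HFD (log2 1.19 ± 0.17, adjusted p = 0.000454). In MlklAdi-KO it was 10.4, 10.7, 11.5 and 15.7 on NCD and 30.1, 34.9, 35.2, 15 and 19.9 on HFD (log2 1.05 ± 0.25, adjusted p = 0.00929), where mouse 156 fell within the NCD range. The other inhibitor, Cdkn2c, had the highest mean FPKM of all members in NCD visWAT, at 69.4, 78.2, 78.5 and 53.9 in WT NCD and 28.3, 30.7, 30.1, 28.8 and 36.7 in WT HFD. In MlklAdi-KO it was 97.1, 77.9, 68.5 and 81.6 on NCD and 34.2, 31.5, 32.9, 35.9 and 60.5 on HFD. The groups did not overlap, and Cdkn2c fell 2.26-fold in WT by the ratio of means (log2 -1.14 ± 0.13, adjusted p = 0.000119) and 2.08-fold in MlklAdi-KO (log2 -1.07 ± 0.19, adjusted p = 0.00232). Among the cyclins, Ccnd3 differed by -0.26 ± 0.06 in WT (adjusted p = 0.0078). Both WT falls were lost on the TPM scale, where the median of all genes moved by 0.42. There Cdkn2c differed by -0.69 (adjusted p = 0.12) and Ccnd3 by 0.19. That scale lowers every gene of WT NCD 183 the most, since its FPKM summed to 564718, and TPM without this library was not fitted. Each fall kept its call in 16 of 17 alternative fits in WT, and that of Cdkn2c in 16 of 16 in MlklAdi-KO, TPM included. Cdkn2c and Ccnd3 were named after their values were seen. Ccnd1, the cyclin that responds to growth signals, was 2.33, 2.41, 2.93 and 17 FPKM in WT NCD and 5.27, 7.36, 6.19, 5.15 and 6.0 in WT HFD, and in MlklAdi-KO 3.08, 3.72, 3.1 and 1.39 and 2.99, 6.18, 6.33, 3.11 and 2.72. The WT NCD value of mouse 183, the library with seminal vesicle reads, was the highest of all. Ccnd1 differed by 0.38 ± 0.46 in WT with that library (adjusted p = 0.54) and by 0.97 without it (adjusted p = 0.000192).

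**Figure D2:**
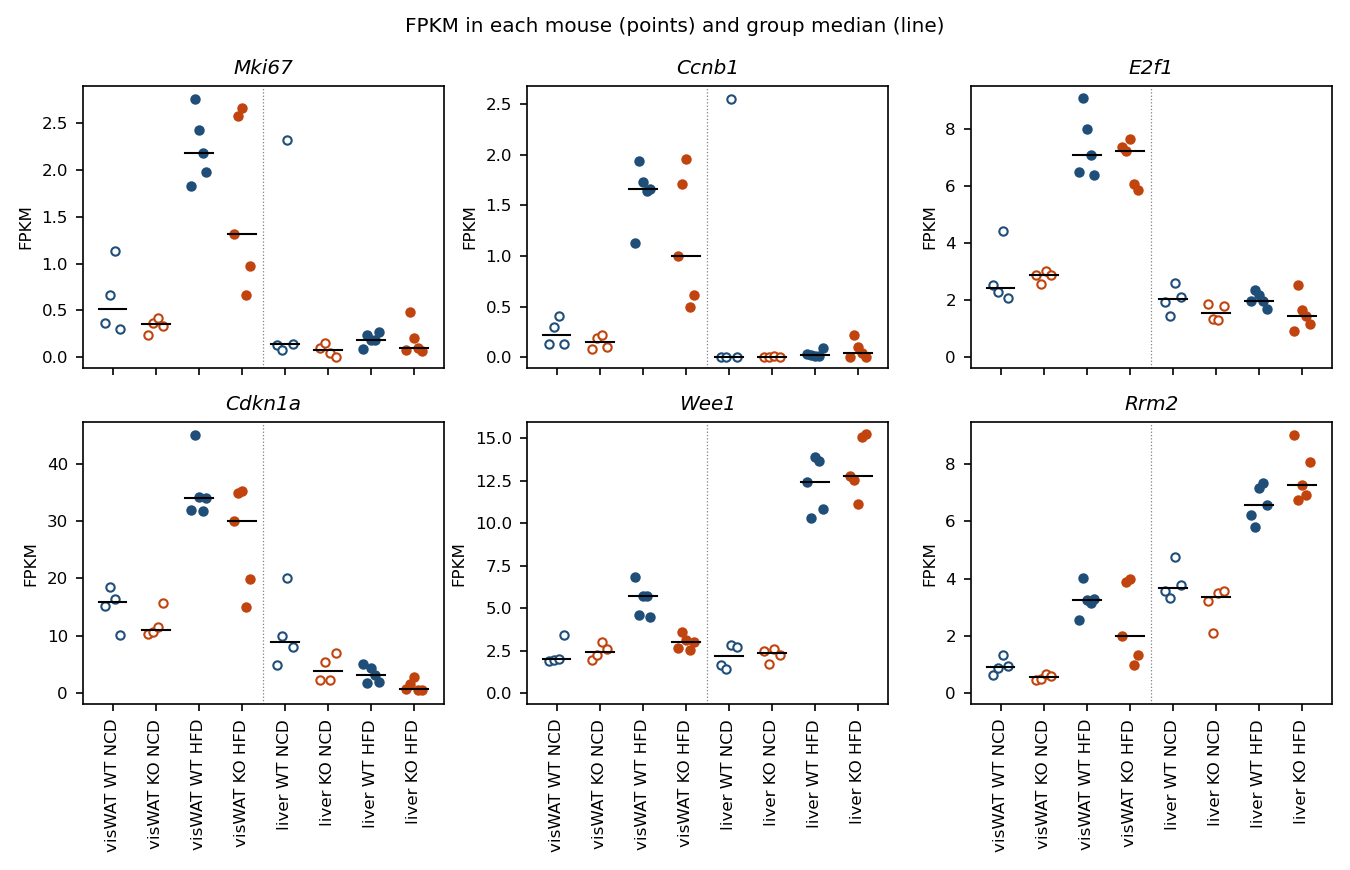
FPKM of Mki67, Ccnb1, E2f1, Cdkn1a, Wee1 and Rrm2 in each mouse by tissue, genotype and diet, with 1 point per library and a line at each group's median (open points NCD, filled points HFD, blue WT, orange MlklAdi-KO). In visWAT the HFD points of Mki67, Ccnb1 and E2f1 lie above the NCD points of the same genotype, and in liver Wee1 is at 10.3 to 15.3 FPKM on HFD and 1.44 to 2.82 on NCD.

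Without regard to the test, 31 members lay higher in every WT HFD visWAT library than in every WT NCD library and 2 lay lower, where 19.6% and 13.8% of all genes did so. In MlklAdi-KO visWAT the numbers were 25 and 1, against 20.1% and 18.3% of all genes. Markers of other cells moved with diet in the same libraries. All 10 macrophage markers rose in WT, and their summed level was 345 to 456 FPKM in WT NCD and 2538 to 3524 in WT HFD. In MlklAdi-KO 9 of 10 rose, from 425 to 704 FPKM on NCD to 1137 to 3199 on HFD. Markers of lipid-associated macrophages rose in 7 of 8 cases in WT (48.4 to 233 FPKM on NCD, 488 to 845 on HFD) and 8 of 8 in MlklAdi-KO. Fibroblast and adipose progenitor markers rose in 6 of 7 cases in WT and 4 of 7 in MlklAdi-KO, with sums of 263 to 345 FPKM in WT NCD and 608 to 765 in WT HFD. Of 6 adipocyte markers 1 rose and 3 fell in WT, and 2 rose and 1 fell in MlklAdi-KO. Of 5 endothelial markers 2 fell in WT and 1 fell in MlklAdi-KO. T cell markers rose in 1 of 1 tested case in WT and 0 of 1 in MlklAdi-KO, and B cell markers in 1 of 4 and 3 of 4. The part of these cells in the members' differences was not tested.

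The 15 mitosis members summed to 5.36 to 11.8 FPKM in WT NCD visWAT, with the library labelled 182 the highest. On HFD the sums were 23.0, 36.2, 33.5, 29.5 and 27.1 in WT and 20.6, 32.5, 37.6, 11.4 and 15 in MlklAdi-KO. MlklAdi-KO mice 156 and 157 had the lowest mitosis sums of the 10 HFD mice and also the lowest macrophage sums, 1148 and 1137 FPKM. The macrophage sums of MlklAdi-KO mice 151, 152 and 153 were 2009, 2869 and 3199 FPKM, in the same order as their mitosis sums. Between mice 156 and 157 the order was reversed. Mouse 156 had the lower mitosis sum (11.4 against 15 FPKM) but the higher macrophage sum (1148 against 1137 FPKM). The macrophage sums of single WT HFD mice are not given here, so their order was not compared.

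**Figure D3:**
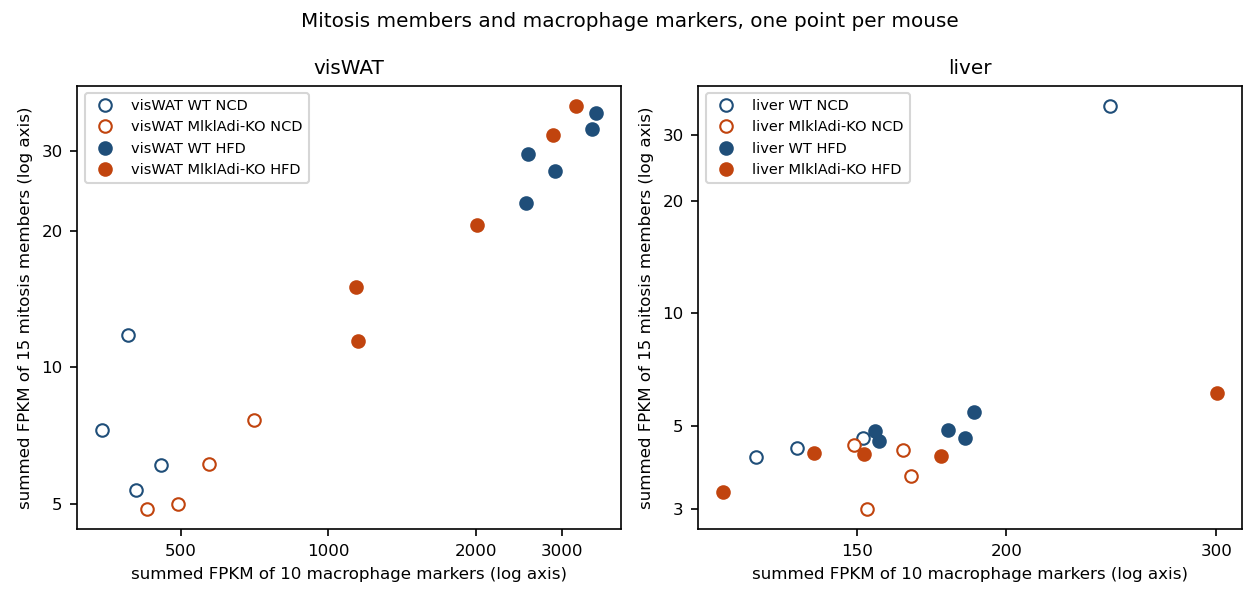
Summed FPKM of 15 mitosis members (vertical axis, log scale) against summed FPKM of 10 macrophage markers (horizontal axis, log scale), with 1 point per library and 1 panel per tissue. Visceral fat on HFD lies at the upper right of its panel, with MlklAdi-KO mice 156 and 157 (11.4 and 15 FPKM for mitosis) lowest among the HFD mice, and liver WT NCD 182 (35.9 FPKM) lies far above the other livers (2.99 to 6.10).

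The next question was whether loss of Mlkl in adipocytes changed the members in visWAT. No member passed the test on either diet. On HFD 0 of 40 were called, where 0.0215% of 13963 genes were, and 2 members and 3003 genes had an unadjusted p under 0.05. On NCD 0 of 28 were called, where 0% of 14063 genes were, and 1 member (Rrm2) and 528 genes had an unadjusted p under 0.05. By edgeR on the recovered reads no member was called on either diet (0.0215% of all genes on HFD and 0% on NCD), and DESeq2 called 1 member (Wee1) of 161 genes on HFD (1.15%) and 0 members of 8 genes on NCD (0.0569%). The median difference on HFD was -0.26 over the tested members, of which 36 of 40 lay below 0. By role, 11 of 11 replication members (-0.40 to -0.07), 7 of 7 of mitotic entry (-0.69 to -0.23) and 13 of 13 of mitosis (-0.43 to -0.12) lay below 0. The median and the share below 0 over all genes are not given here, so a shift common to all genes is not told apart. The same mice enter every member, so the members are not independent of each other. The 2 MlklAdi-KO HFD mice with the lowest macrophage sums, 156 and 157, also had the lowest mitosis sums, and the part of those cells was not tested. These comparisons use the same MlklAdi-KO and WT samples as the diet comparisons and are not independent of them.

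Wee1 had the clearest difference between the genotypes on HFD. The 5 MlklAdi-KO HFD values (2.53 to 3.61 FPKM) all lay below the 5 WT HFD values (4.49 to 6.84), and it was the only tested member whose groups did not overlap in that direction, where 1.59% of all genes did so. Its difference was -0.69 ± 0.11 (adjusted p = 0.0998), the exact permutation p was 0.00794, the smallest that 5 against 5 allows, and DESeq2 gave an adjusted p of 1.2e-05. Mki67 differed by -0.36 ± 0.21 (exact permutation p = 0.175), Top2a by -0.43 ± 0.23 (exact permutation p = 0.159), and Ccnd1 by -0.47 ± 0.21 (exact permutation p = 0.127), with overlapping groups. On NCD, Rrm2, a subunit of the enzyme that makes deoxynucleotides, differed by -0.31 ± 0.12 (adjusted p = 0.916), with 0.462, 0.517, 0.679 and 0.598 FPKM in MlklAdi-KO against 0.629, 0.905, 1.33 and 0.942 in WT (exact permutation p = 0.0571, where 4 against 4 allows 0.0286). No interaction of genotype and diet was called in visWAT (0 of 38 members, 0% of all genes, 1867 genes with an unadjusted p under 0.05). The Wee1 interaction was -0.76 ± 0.19 (adjusted p = 0.314), so the diet difference in WT is not shown to differ from that in MlklAdi-KO.

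In liver, 3 members were called by diet in both genotypes, Wee1, Cdkn1a and Rrm2, and in MlklAdi-KO the members were called about as often as all genes. Of 28 members tested in WT, 2 rose and 2 fell, where 13.2% of 13330 genes rose and 12.1% fell. In MlklAdi-KO 3 of 23 rose and 3 fell, where 11.9% and 10.3% of 13149 genes did. All HFD livers lay above all NCD livers for 2 members and below for 2 in WT (13.3% and 11.6% of all genes), and for 4 and 2 in MlklAdi-KO (11.6% and 9.89%). No mitosis member was called in either genotype (0 of 5 and 0 of 2 tested), and 0 of 4 members of S-phase entry were.

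Wee1 rose in both genotypes, by the largest log2 difference of any member in liver. Its FPKM was 1.7, 1.44, 2.82 and 2.75 in WT NCD and 12.4, 10.3, 13.9, 13.7 and 10.8 in WT HFD. In MlklAdi-KO liver it was 2.47, 1.71, 2.59 and 2.28 on NCD and 12.8, 12.5, 11.2, 15.1 and 15.3 on HFD. The lowest HFD value was over 3 times the highest NCD value, and the log2 differences were 2.08 ± 0.15 in WT (adjusted p = 4.41e-05, ratio 5.62) and 2.14 ± 0.11 in MlklAdi-KO (adjusted p = 1.1e-05, ratio 5.91). Wee1 is known as a clock-controlled gene in liver. Of the clock genes, 8 of 13 rose and 3 fell in both genotypes, among them Nr1d1 (-2.45 in WT), Per2 (1.98) and Per3 (1.81). The part of the clock genes in the Wee1 difference was not tested.

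Cdkn1a moved in the opposite direction to visWAT. It was 4.98, 9.98, 20.2 and 8.02 FPKM in WT NCD and 5.05, 1.89, 4.34, 3.14 and 2.08 in WT HFD, and 2.42, 5.4, 2.3 and 7.07 and 0.757, 1.73, 2.93, 0.55 and 0.602 in MlklAdi-KO. The diets overlapped in both genotypes, in WT only through NCD mouse 165 and HFD mouse 154. By the ratio of means it was 3.27-fold lower on HFD in WT (log2 -1.36 ± 0.36, adjusted p = 0.0217) and 3.27-fold lower in MlklAdi-KO (log2 -1.19 ± 0.35, adjusted p = 0.0371). The call held in 7 of 9 fits without 1 mouse in WT and in 4 of 9 in MlklAdi-KO. Of 13 other p53 target genes tested, 6 fell in WT (Bbc3 by 1.32, Btg2 by 1.28 and Trp53inp1 by 1.19 on the log2 scale), and in MlklAdi-KO 1 rose and 5 fell.

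Of the replication members, Rrm2 rose in both genotypes and Tk1 in MlklAdi-KO, and Rrm1 and Tyms, which also serve the supply of deoxynucleotides, were not called in either. Rrm2 was 3.58, 3.33, 4.77 and 3.79 FPKM in WT NCD and 6.23, 5.79, 7.15, 7.35 and 6.58 in WT HFD (log2 0.65 ± 0.09, adjusted p = 0.00127). In MlklAdi-KO it was 3.22, 2.12, 3.5 and 3.56 on NCD and 9.03, 6.73, 7.28, 6.92 and 8.07 on HFD (log2 1.08 ± 0.13, adjusted p = 0.000453), and the diets did not overlap in either genotype. Tk1, thymidine kinase of S phase, was 4.0, 3.52, 4.92 and 4.44 FPKM in MlklAdi-KO NCD and 10.05, 6.11, 6.36, 10.3 and 9.56 in MlklAdi-KO HFD (log2 0.84 ± 0.16, adjusted p = 0.00575). In WT it was 5.95, 5.78, 4.81 and 5.31 on NCD and 6.85, 5.55, 6.64, 6.14 and 6.41 on HFD (log2 0.18 ± 0.07, adjusted p = 0.104), and those groups overlapped. Mcm7 fell by a small amount in WT (-0.25 ± 0.05, adjusted p = 0.00933). Ccnd1 in MlklAdi-KO liver was 6.96, 10.6, 4.1 and 3.91 FPKM on NCD and 3.25, 3.56, 3.44, 2.49 and 1.53 on HFD (-0.88 ± 0.27, adjusted p = 0.0424), and the call held in 3 of 9 fits without 1 mouse, as did that of Cdkn2c (-0.34 ± 0.10, adjusted p = 0.0319).

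**Figure D4:**
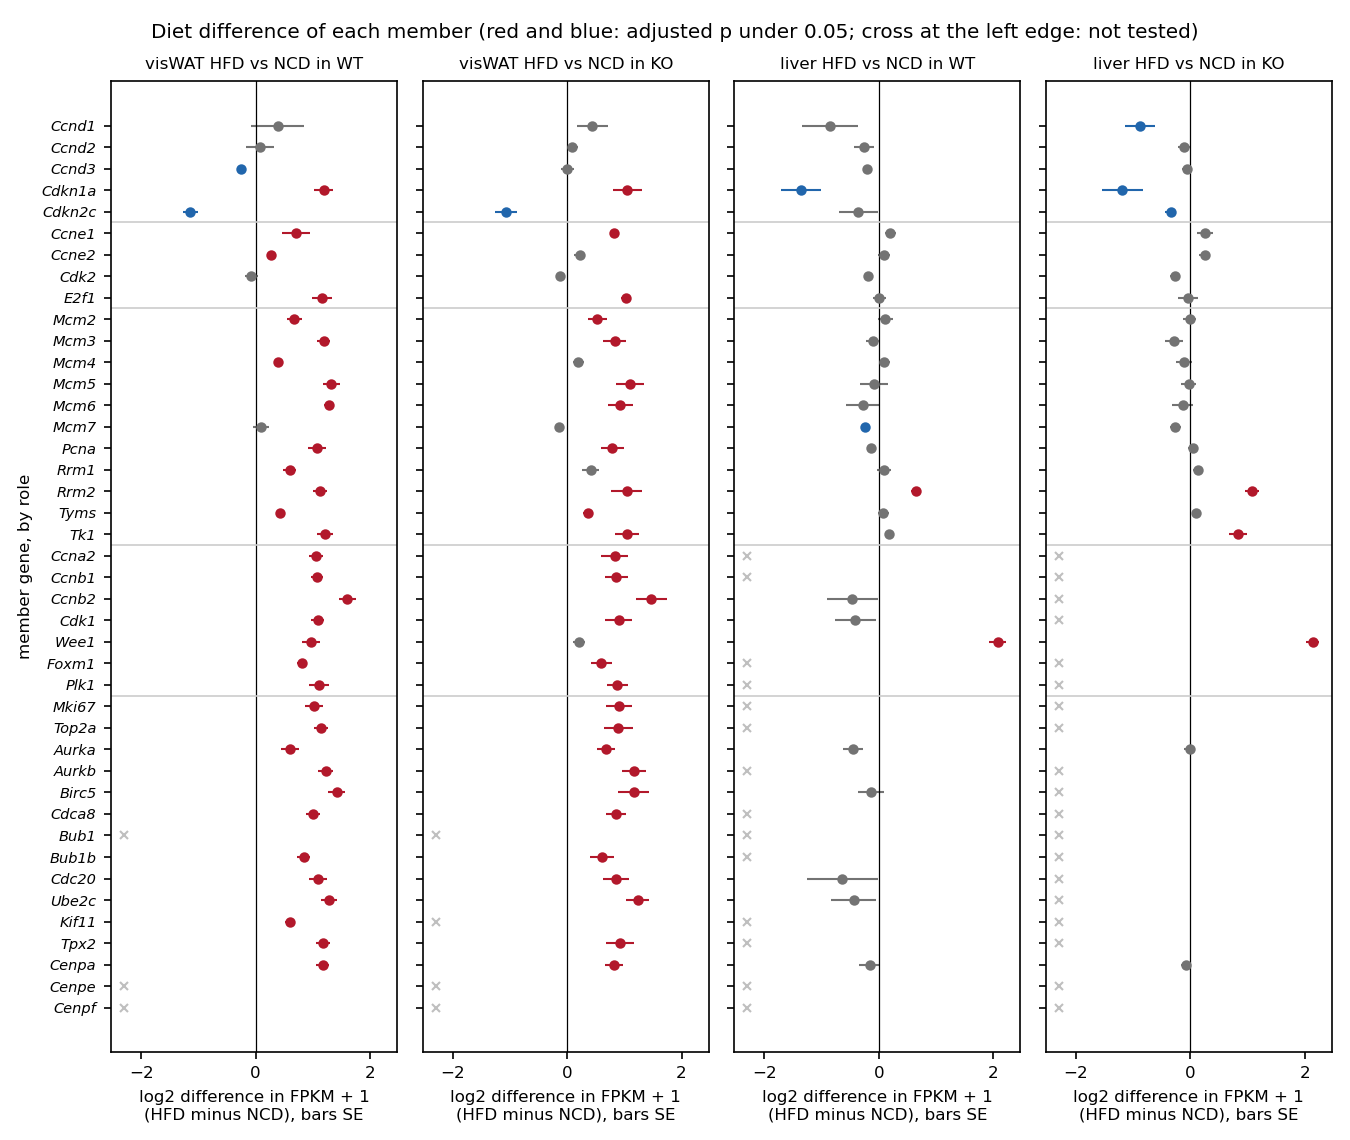
Difference between HFD and NCD for each member on the log2(FPKM + 1) scale, with its SE, in visWAT and liver of WT and MlklAdi-KO mice (1 panel each); red and blue points passed the test and rose or fell, grey points did not pass, and crosses at the left edge mark members not tested. In visWAT 33 WT and 28 MlklAdi-KO members lie to the right and passed, whereas in liver 2 and 3 did.

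The mitosis genes were low in 17 of 18 livers, where the 15 members summed to 2.99 to 6.10 FPKM. Mki67 was 0.132, 0.0743, 2.32 and 0.146 FPKM in WT NCD liver, 0.0834, 0.233, 0.183, 0.181 and 0.266 in WT HFD, 0.0987, 0.148, 0.0454 and 0.0059 in MlklAdi-KO NCD and 0.079, 0.487, 0.21, 0.0971 and 0.0608 in MlklAdi-KO HFD. Top2a was 0.101, 0.077, 2.17 and 0.138 in WT NCD, 0.105, 0.148, 0.176, 0.174 and 0.20 in WT HFD, 0.0857, 0.153, 0.0633 and 0.0395 in MlklAdi-KO NCD and 0.0475, 0.399, 0.145, 0.0892 and 0.0678 in MlklAdi-KO HFD. In both genes mouse 182 of WT NCD was several-fold above every other liver. Cdk1 was 0.22, 0.206, 3.22 and 0.194 in WT NCD, 0.0793, 0.227, 0.155, 0.33 and 0.443 in WT HFD, 0.324, 0.21, 0.162 and 0.217 in MlklAdi-KO NCD and 0.347, 0.391, 0.289, 0.186 and 0.235 in MlklAdi-KO HFD. Foxm1 was 0.063, 0.0742, 0.998 and 0.0882 in WT NCD, 0.136, 0.13, 0.151, 0.0981 and 0.0854 in WT HFD, 0.105, 0.0799, 0.0794 and 0.0516 in MlklAdi-KO NCD and 0.0957, 0.208, 0.0971, 0.0599 and 0.0744 in MlklAdi-KO HFD. Again only the library WT NCD 182 was far from the rest. Ccnb1 was 0, 0, 2.55 and 0 in WT NCD, 0.0265, 0.0253, 0.0121, 0.0149 and 0.0907 in WT HFD, 0, 0, 0.0135 and 0 in MlklAdi-KO NCD and 0, 0.222, 0.103, 0.0409 and 0 in MlklAdi-KO HFD. The 3 other WT NCD livers held no Ccnb1 read, and WT NCD 182 held 223. E2f1 was higher, at 1.94, 1.44, 2.6 and 2.13 in WT NCD, 1.97, 2.35, 2.19, 1.97 and 1.68 in WT HFD, 1.85, 1.33, 1.3 and 1.79 in MlklAdi-KO NCD and 0.911, 2.54, 1.67, 1.44 and 1.16 in MlklAdi-KO HFD, and Ccnd1 was 3.63, 4.0, 24.3 and 4.41 in WT NCD and 2.08, 5.18, 2.25, 2.9 and 4.09 in WT HFD.

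Liver WT NCD 182 had the highest value of the 18 livers for 36 of 42 members (85.7%), against 1760 of 13248 genes (13.3%). This covered 15 of 15 mitosis members, 5 of 5 G1 cyclins and CDK inhibitors, 9 of 11 replication members, 6 of 7 of mitotic entry and 1 of 4 of S-phase entry. The exceptions were Ccne1, Ccne2, Cdk2, Rrm2, Tk1 and Wee1. Relative to the mean of the other 3 WT NCD livers, Cenpf was 43.7-fold, Cdc20 (an activator of the anaphase-promoting complex) 43.1-fold, Tpx2 (a spindle assembly factor) 34.8-fold, Mki67 19.7-fold and Cdk1 15.6-fold higher. Among 58 other mitosis genes 52 were highest there, at a median of 6.26-fold, and among 32 other replication genes 16 were, at 1.66-fold. Of other control genes of G1 8 of 24 were highest and of p53 targets 7 of 15. In the same library, lipid-associated macrophage markers summed to 247 FPKM against 98.1 to 126 in the other WT NCD livers, and cholangiocyte markers to 167 against 22.5 to 38.0. These sums are not independent, since Spp1 is in both lists and was 147 FPKM against a mean of 25.8. Fabp5, another lipid-associated macrophage marker, was lower (59.8 against 72.9). Of the 8 lipid-associated macrophage markers 6 were highest of the 18 livers there, and of the 5 cholangiocyte markers 3 were. Macrophage markers summed to 244 against 123 to 152, fibroblast markers were a median of 2.31-fold and hepatocyte markers 0.873-fold of the others, and 0 of 5 Kupffer cell markers were highest. Their part in the members' values was not tested.

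Leaving this library out, 8 of 24 members were called between the diets in WT liver (4 higher, 4 lower), where 28.5% of all genes were. Ccne1, Mcm2, Rrm2 and Wee1 rose, and Cdkn1a, Cdk2, Mcm7 and Aurka fell. The median was -0.15 over the 28 members tested with it and 0.09 over the 24 tested without it, so the sign of the median depended on this 1 liver. The 2 medians do not cover the same genes, since some members, such as Cdc20 and Ccnb2, reach a mean of 0.5 FPKM only with this library.

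Between genotypes, no member was called in liver. On HFD 0 of 23 were (0.197% of 13215 genes), and 4 members had an unadjusted p under 0.05. On NCD 0 of 27 were (0.00758% of 13193 genes), with 2 members at an unadjusted p under 0.05. Cdkn1a was lower in MlklAdi-KO on both diets in its mean, at -0.93 ± 0.30 on HFD (adjusted p = 0.255, exact permutation p = 0.0317) and -1.11 ± 0.42 on NCD (adjusted p = 0.996, exact permutation p = 0.0857), and neither passed. Tk1 differed by 0.35 ± 0.14 on HFD (adjusted p = 0.352) and by -0.31 ± 0.10 on NCD (adjusted p = 0.996). Its interaction of genotype and diet was 0.66 ± 0.19 (adjusted p = 0.347; DESeq2 adjusted p = 0.0492), and 0 of 26 members were called for it (0.0151% of all genes). Without WT NCD 182, 0 of 22 members were called between genotypes on NCD (0.0536% of all genes).

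The 2 tissues were then compared within WT mice. RNA of the tissues was extracted with different kits, so tissue and extraction cannot be told apart. On NCD, 5 of 33 members were higher in visWAT and 5 were lower, where 65.5% of all genes were called. Cdkn2c (log2 4.28 ± 0.38), Ccnd2 (2.65 ± 0.31) and Ccnd3 (1.05 ± 0.09) were higher in visWAT, and Tk1 (-1.96 ± 0.10) and Rrm2 (-1.32 ± 0.13) were higher in liver (adjusted p = 1.91e-05, 0.000104, 1.34e-05, 5.45e-07 and 4.09e-05). Mcm3 and Mcm4 were also higher in visWAT, and Tyms, Aurka and Cenpa in liver. Without mouse 182 the call rose to 16 of 25 members (11 higher in visWAT, 5 lower), and without mice 182 and 183 to 18 of 26 (12 and 6), where 68.8% and 69.7% of all genes were called. On the TPM scale, where the median of all genes was 0.52, 11 members were higher in visWAT and 2 lower, where 39.3% and 14.7% of all genes were.

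On HFD the members were mostly higher in visWAT. Of 39 tested, 35 were higher and 3 lower, where 41.6% of 14666 genes were higher and 43% lower. All tested members of mitosis (12 of 12), S-phase entry (4 of 4) and G1 (5 of 5) were called higher in visWAT. The largest differences were in Cdkn2c (3.5 ± 0.09), Cdkn1a (3.13 ± 0.20), Ccnd2 (2.98 ± 0.07), Ube2c (2.1 ± 0.10) and Mcm6 (2.01 ± 0.13), with adjusted p = 1.27e-11, 3.15e-08, 7.13e-12, 3.33e-09 and 4.08e-08. Wee1 (-1.03 ± 0.11), Tk1 (-0.92 ± 0.12) and Rrm2 (-0.85 ± 0.09) were higher in liver, and on the TPM scale, where the median of all genes was 0.95, they differed by -0.06, -0.04 and 0.06. With a replicate block for the mouse, which gives both tissues, 11 members were called on NCD and 39 on HFD. The share of all genes called in the blocked fits is not given here, so these counts are no result about the members.

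The diet difference itself differed between the tissues in 28 of 38 members, where 40% of 14746 genes were called. In 27 the difference (visWAT HFD minus NCD, less liver HFD minus NCD) was positive and in 1 (Wee1) negative, against 21.8% and 18.2% of all genes. It was 2.55 ± 0.42 for Cdkn1a, 2.06 ± 0.50 for Ccnb2 and 1.72 ± 0.44 for Ube2c (adjusted p = 0.000140, 0.00348 and 0.00554), and -1.11 ± 0.23 for Wee1 (adjusted p = 0.000960). By role, 9 of 11 replication members, 6 of 7 of mitotic entry and 10 of 11 of mitosis were positive. Because liver WT NCD 182 is in this fit, it was repeated without mouse 182. Then 30 members were called (28 positive, 2 negative), where 43.3% of all genes were, and Ccnb2 stood at 1.57, Ube2c at 1.31, Mki67 at 1.07 and Wee1 at -1.25. With a replicate block for the mouse, 29 were called, again without the share of all genes beside it. All 10 macrophage markers and 8 of 8 lipid-associated macrophage markers were also positive.

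Genes of the same processes that are not members were taken from lists of replication, mitosis, G1 control, p53 targets, clock and glucocorticoid response. In WT visWAT, 13 of 24 other replication genes rose on HFD and 1 fell, led by Cdt1 (1.55), which loads the helicase, Gmnn (1.24), which restrains Cdt1, and Uhrf1 (1.06), which copies DNA methylation. Of 36 other mitosis genes 33 rose and 2 fell, led by Stmn1 (2.15), a regulator of microtubules, Spc25 (1.54) and Incenp (1.37). In MlklAdi-KO visWAT 14 of 23 other replication genes and 21 of 32 other mitosis genes rose and none fell. Other G1 control genes divided, with 3 of 22 higher and 2 lower in WT and 4 of 21 higher and 5 lower in MlklAdi-KO. Cdkn2a, the gene of p16 and p19, was higher by 0.80 in WT and 0.61 in MlklAdi-KO, and Lin52 was lower by 0.60 and 0.54. Of p53 targets 9 of 14 rose in WT (Plk2 by 1.22, Gadd45a by 0.97 and Bax by 0.91), and 5 of 14 rose and 2 fell in MlklAdi-KO. Clock genes showed 0 higher and 2 lower of 14 in WT and 1 higher and 3 lower of 13 in MlklAdi-KO, and glucocorticoid-responsive genes 0 and 2 of 6 in WT and 0 and 6 of 6 in MlklAdi-KO.

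In liver the other replication, mitosis and G1 control genes were also counted by diet. Of all genes, 13.2% rose and 12.1% fell in WT, and 11.9% rose and 10.3% fell in MlklAdi-KO. Of other replication genes 1 of 18 rose and 2 fell in WT (Rfc3 by -0.34 among the latter), and 2 of 17 rose and 1 fell in MlklAdi-KO. Of other mitosis genes 0 of 22 rose and 2 fell in WT (Cks1b by -0.72 and Bub3 by -0.24), and 2 of 18 rose and 2 fell in MlklAdi-KO. Among G1 control genes E2f8 rose by 1.16 in WT, the single call of 19, and in MlklAdi-KO 2 of 20 rose and 2 fell. Glucocorticoid-responsive genes rose in 1 and fell in 2 of 6 in each genotype, with Zbtb16 at -2.91 in WT and -1.86 in MlklAdi-KO and Fkbp5 at 1.04 and 1.68. Without liver WT NCD 182 the WT counts were 2 higher and 1 lower of 18 other replication genes, 1 and 4 of 18 other mitosis genes, 2 and 1 of 19 G1 control genes, 1 and 6 of 13 p53 targets, 8 and 3 of 13 clock genes and 1 and 4 of 6 glucocorticoid-responsive genes. None of these lists had a called gene between genotypes in either tissue.

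The remaining marker lists also gave counts by diet. In WT visWAT 2 of 4 Kupffer cell markers and 1 of 5 cholangiocyte markers rose, and 0 of 5 mesothelium, 0 of 3 hepatocyte and 0 of 5 seminal vesicle markers were called. In MlklAdi-KO visWAT 3 of 4 Kupffer cell markers and 1 of 5 cholangiocyte markers rose, 2 of 5 mesothelium markers fell, and 0 of 6 hepatocyte and 0 of 3 seminal vesicle markers were called. The cholangiocyte marker that rose was Spp1 in both genotypes, which is also in the list of lipid-associated macrophage markers. In WT liver 0 of 10 macrophage markers were called, 2 of 5 Kupffer cell markers and 2 of 3 adipocyte markers rose, and 2 of 6 lipid-associated macrophage, 1 of 6 fibroblast, 1 of 4 cholangiocyte and 4 of 6 hepatocyte markers fell. Without liver WT NCD 182, 3 of 10 macrophage, 1 of 4 lipid-associated macrophage, 1 of 5 Kupffer cell, 3 of 6 fibroblast and 2 of 3 adipocyte markers rose in WT, and 2 of 4 lipid-associated macrophage, 1 of 6 fibroblast, 1 of 4 cholangiocyte and 6 of 6 hepatocyte markers fell. In MlklAdi-KO liver 2 of 4 lipid-associated macrophage and 4 of 6 hepatocyte markers fell, and 1 of 6 fibroblast and 1 of 3 adipocyte markers rose. No marker of any list was called between genotypes.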

How the data were processed

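RNA was sequenced from visWAT and liver of 18 mice (36 libraries, 1 per mouse and tissue, none pooled). According to the study's methods, the authors selected polyadenylated RNA, trimmed the paired reads, mapped them to mm39 and counted reads per gene with featureCounts 1.5.0-p3, the version in the submitters' processing notes. The annotation release and strandedness are not given in the sources used here, so reads of overlapping or antisense genes cannot be told apart. The deposited table holds FPKM for 56748 genes, and the count columns deposited with the authors' own comparisons give reads for the genes listed there. The authors' fold changes, p-values and pathway tables were not used, nor were 72 per-sample columns of normalized and FPKM values beside them.

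Groups were taken from the sample titles. Genes with a mean of at least 0.5 FPKM over the libraries of a fit were tested with limma 3.58.1 (R 4.3.3, empirical Bayes with trend) on log2(FPKM + 1), with Benjamini-Hochberg adjustment over all genes and a threshold of 0.05. The pseudocount of 1 understates the change of low genes. Each fit used the groups compared, and all 4 for an interaction. Reads were recovered from the FPKM steps, and 100% of values were whole within 0.01, without a difference from the deposited counts. On these reads edgeR 4.0.16 called 5862 genes and DESeq2 1.42.0 called 6286 between the diets in WT visWAT, where limma called 5347. The library size behind the FPKM was 0.737 to 0.812 of the reads on genes in liver and 1.01 to 1.40 in visWAT, so FPKM and TPM scale the tissues differently. The 64 replicate pairs differed by more than counting error (lowest chi-square per gene 9.82). Exact permutation tests were two-sided. The fits were tested on simulated data.

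The members and gene lists were chosen with earlier results of these data known. Per-mouse values are given for 9 genes (Mki67, Top2a, Cdk1, Ccnb1, Ccnd1, Cdkn1a, Wee1, E2f1 and Foxm1) and for the 5 called members with the largest differences per comparison (3 for interactions), and from each list of other genes the 3 largest called ones are named, except 1 gene that is not reported here. The lists cover other replication, mitosis and G1 control genes, p53 targets, clock and glucocorticoid-responsive genes, and markers of macrophages, lipid-associated macrophages, Kupffer cells, T cells, B cells, endothelium, fibroblasts and adipose progenitors, mesothelium, adipocytes, hepatocytes, cholangiocytes and seminal vesicle. Both tissues of a mouse are paired by animal, which the comparisons of tissues took up as a replicate block in an alternative fit. The fits were repeated on the TPM scale, with a smaller pseudocount (0.1), with no minimum level or one of 1 FPKM, with edgeR, with DESeq2, without each mouse in turn, with all 4 groups of a tissue in 1 fit, and without WT NCD mice 182 and 183. Promoter bases before canonical transcript starts were read from the GRCm39 reference, and Python 3.11.15 was used for the summaries.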

Additional observations from a re-analysis of the deposited data

Results flagged for a closer look

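Within groups of 4 or 5 mice, 176 combinations of 22 members and 8 groups were searched for a sample far from the others, by the gap to its nearest neighbour as a share of the group's range, with limits of 0.829 for 4 mice and 0.71 for 5. Chance flags about 1 in 20 groups, and 27 were marked, 13 of them in liver WT NCD mouse 182, whose values were all high. Its gaps were 0.943 for Mki67, 0.949 for Top2a, 0.983 for Cdk1, 1 for Ccnb1, 0.909 for Ccnd1, 0.963 for Foxm1, 0.913 for Ccnb2, 0.912 for Birc5, 0.899 for Mcm5, 0.943 for Mcm6, 0.925 for Ube2c, 0.881 for Aurkb and 0.892 for Cdkn2c. In visWAT WT NCD, the library labelled 182 was high for Top2a (0.855) and Ccne1 (0.953), and mouse 183 for Ccnd1 (0.902) and Wee1 (0.911). In the other groups, the gaps were 0.8 for Cdkn1a and 0.77 for Ccne1 in visWAT WT HFD mouse 155, both high, 0.846 for Tk1 in visWAT MlklAdi-KO NCD mouse 197 (high), 0.895 for Ccnd3 in mouse 179 of that group (low) and 0.799 for Cdkn2c in visWAT MlklAdi-KO HFD mouse 157 (high). In liver MlklAdi-KO NCD they were 1 for Ccnb1 in mouse 197 (high, 1 read against 0 in the others) and 0.89 for Mcm7 in mouse 166 (low). In liver WT HFD they were 0.811 for Ccnb1 in mouse 164 (high, 7 reads against 1 or 2) and 0.737 for Mcm6 in mouse 155 (high). For Foxm1 in liver MlklAdi-KO HFD mouse 152 (high) the gap was 0.737.

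The diet difference in WT mice differed between visWAT and liver for 28 members by the limma interaction. On the log2 scale the interaction was 2.55 for Cdkn1a, 2.06 for Ccnb2, 1.72 for Ube2c, 1.32 for Mki67, 1.45 for Top2a, 1.49 for Cdk1, 1.48 for Ccnb1, 1.15 for E2f1, 0.972 for Foxm1 and -1.11 for Wee1.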

How the results depend on the processing

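Depth limits the low members. With 3 reads as the floor, Ccnb1 held 0 to 18 reads and Bub1 0 to 7 in the livers other than WT NCD 182. Differences of such genes among those livers may be missed at this depth. Other mitosis members also came to or under the floor in some livers. Aurkb held 0 reads in WT NCD 180, MlklAdi-KO NCD 199 and MlklAdi-KO HFD 157, and Cenpe 0 in MlklAdi-KO HFD 151. Mki67 and Tpx2 held 1 read each in MlklAdi-KO NCD 199. Aurka (43 to 202 reads) and Cenpa (78 to 319) lay well above the floor in every liver. Of the counts of members called, 209 of the alternative values stayed within 1.5 times the reported count and 11 did not. DESeq2 on recovered reads called 1 member between genotypes in visWAT on HFD (reported 0), 7 between diets in WT liver (reported 4) and 1 for the genotype by diet interaction in liver (reported 0). No filter gave 3 between diets in MlklAdi-KO liver (reported 6), a minimum mean of 1 FPKM gave 18 for the tissue by diet interaction (reported 28), and leaving out WT NCD mice 182 and 183 gave 18 between tissues on NCD (reported 10). The cause was not tested, except that a stricter minimum tests fewer members. Leaving out 1 mouse gave 34 to 35 calls between diets in WT visWAT, 25 to 31 in MlklAdi-KO visWAT, 3 to 8 in liver of each genotype, 7 to 16 between tissues on NCD, 38 to 38 on HFD and 25 to 30 for tissue by diet, and 0 to 0 for every genotype comparison and both genotype by diet interactions. In MlklAdi-KO liver the count fell to 3 without HFD mouse 151, 156 or 157. With the replicate block for the mouse the counts were 11 and 39 between tissues and 29 for tissue by diet. Where no share of all genes is given above, these counts show dependence on the settings and are no result about the members. Among single genes, 1113 alternative values kept direction and side of the threshold, 48 lost and 5 gained the call, and 3 reversed: Ccnd1 between diets in WT visWAT by edgeR (-0.12), and on the TPM scale Ccnd3 in the same comparison (0.19) and Rrm2 between tissues on HFD (0.0642).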
